A study of Mus musculus with 18 samples.

Results

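RelA(Ser276Ala) cells are immortalized mouse embryonic fibroblasts that lack their own rela gene and carry, from a retroviral vector, a mouse RelA in which 1 serine, Ser276, is replaced by alanine. Their response to 2 h of TNFα was read from the 2 libraries titled as this mutant at 2 h (5 ng/ml TNFα), set against the 2 libraries titled as this mutant at 0 h (no TNFα), so 4 of the 18 RNA-seq libraries of the series were compared. The other libraries came from the same rela-/- cells carrying RelA(Ser276Ala) at 1 h, RelA(wt), or RelA(TA2), which has the changes Leu449Ala and Phe473Ala, with 2 libraries for each line at 0, 1 and 2 h. All groups share the loss of the endogenous rela gene and the pBABE-puro vector, and no empty-vector library was analysed here. The labels do not say whether a line is a clone or a pool, nor how many reconstitutions stand behind it, so each line is treated here as 1 reconstitution. The p-values therefore measure the spread between the 2 replicate libraries of a condition, pooled over all 18 libraries. They cannot be taken to measure a spread between reconstitutions.

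NF-κB is a family of dimeric transcription factors that IκB proteins hold in the cytoplasm. TNFα bound to its receptor leads to IκB degradation, so that dimers such as RelA:p50 enter the nucleus and bind κB sites, and among the genes switched on are those of the inhibitors IκBα and A20, which end the response. RelA binds the co-activators CBP and p300 through its transactivation domain and through a second contact. That contact requires phosphorylation of Ser276, which the alanine mutant cannot undergo. The study found CBP and p300 on the promoters it tested before TNFα and proposes that they help to recruit RelA there. The comparison at 2 h asks which genes are raised in cells carrying this mutant once the early wave of the response has passed. Without an empty-vector library it does not show which of these changes need RelA.

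Values are FPKM, sequenced fragments scaled to the length of the transcript and the depth of the library, summed over the assembled transcripts of a gene, and a gene with no assembled transcript is listed at 0. A gene is called when limma on log2(FPKM + 0.5) gives an adjusted p under 0.05 over 12273 genes. The number of fragments behind each FPKM was also recovered and tested in the same way, as a second reading of the same libraries. A gene listed at 0 FPKM has 0 recovered fragments too, so there the second reading repeats the zeros. The 2 h libraries held 29.4 and 25.8 M mapped fragments and the 0 h libraries 28.4 and 30.0 M. Over all 18 libraries the range was 25.3 to 31.1 M. Log2 FPKM correlated across genes at r = 0.903 between the 2 h libraries and 0.918 between the 0 h libraries, and recovered fragments at 0.966 and 0.974. These are descriptions across genes, which are not replicates.

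No change with TNFα was called in the reintroduced gene. Rela stood at 190 and 174 FPKM at 2 h, against 186 and 174 FPKM at 0 h, a log2 difference of 0.02 ± 0.10 (SE; adjusted p = 1). In RelA(wt) cells it was 168 and 156 FPKM at 2 h, against 165 and 176 FPKM at 0 h, and in RelA(TA2) cells 327 and 323 FPKM, against 344 and 315 FPKM. The FPKM count reads from the vector and from any remaining Rela transcript together and do not show the mutated codon. Fibroblast and matrix genes were high in each of the 4 libraries, with a summed level of 5507 and 4926 FPKM at 2 h and 4898 and 5177 FPKM at 0 h over 19 genes. Of the markers of other cells, Ptprc, Itgam and Aif1 of macrophages, Pecam1, Tek and Tie1 of endothelium, Epcam and Cdh1 of epithelium, Myod1 and Myog of muscle, Adipoq of fat, and Gfap and Sox10 of glia were listed at 0 in the 4 libraries. Other markers were above 0. The summed FPKM of the marker lists was 17.6 and 14.3 at 2 h and 12.4 and 11.2 at 0 h for macrophages (4 of 7 genes at 0), 5.3 and 9.1 at 2 h and 9.7 and 1.9 at 0 h for endothelium (4 of 6), and 41.4 and 36.0 at 2 h and 41.0 and 36.4 at 0 h for epithelium (5 of 7), whose list includes Krt8. It was 3.9 and 7.6 at 2 h and 21.6 and 2.9 at 0 h for muscle (4 of 6), 12.4 and 14.8 at 2 h and 11.0 and 10.5 at 0 h for fat (3 of 5), and 13.6 and 11.1 at 2 h and 15.3 and 14.4 at 0 h for nerve and glia (3 of 6).

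Secreted signals and the main inhibitor of the pathway were among the genes that rose by 2 h. Chemokines (Ccl2, Ccl7, Cxcl1, Cxcl10), growth factors (Lif, Csf1, Hbegf, Ereg, Vegfa), the prostaglandin synthase Ptgs2, IκBα (Nfkbia) and the Id proteins rose. Of the 12273 genes, 86 were called higher at 2 h (0.701% of those tested) and 35 lower (0.285%). On recovered fragments 555 were higher (4.52%) and 726 lower (5.92%). These shares over all genes are those to set beside the counts of list members given below. Genes past the test on both measures in the same direction whose 2 h and 0 h libraries do not overlap in FPKM numbered 78 higher (0.636%) and 26 lower (0.212%). Of the FPKM calls, 5 of the 86 higher and 2 of the 35 lower had the opposite sign on fragments. The median gene changed by -0.04 on the log2 scale.

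The count of FPKM calls rests on few libraries. It was 148 and 158 higher without the first or the second 2 h library and 54 higher without the second 0 h library, and 93 and 87 lower without the first or the second 0 h library. Of the 43 named genes past the test, 15, 10, 16 and 20 lost their call when the first or second 2 h library or the first or second 0 h library was left out, and 39 lost it when the 4 libraries were fitted alone.

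**Figure D1:**
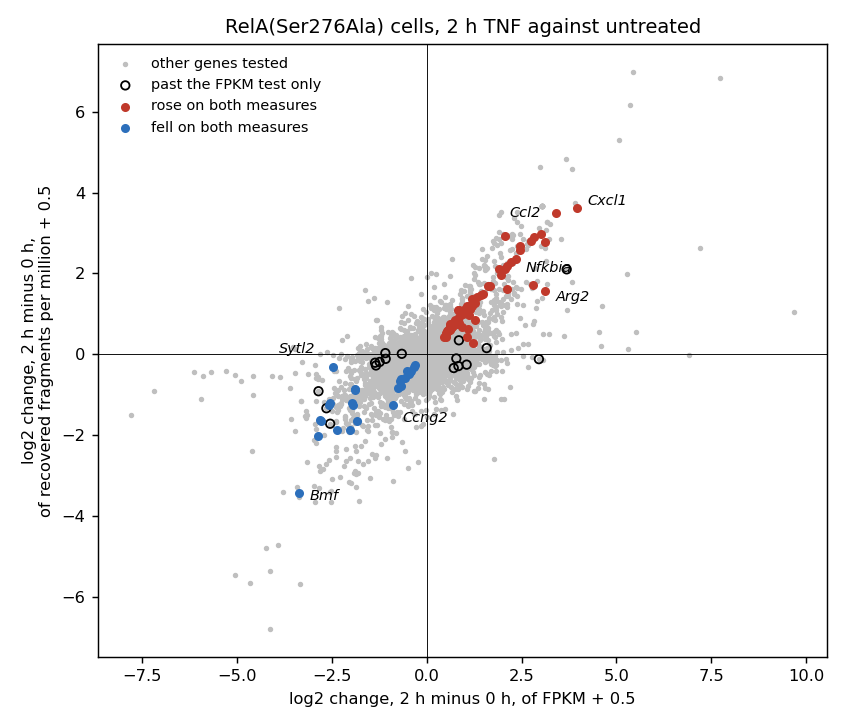
Each point is 1 of the 12273 genes tested in RelA(Ser276Ala) cells, with the log2 change at 2 h against 0 h of FPKM on the x axis and of recovered fragments on the y axis. The 78 genes that rose (red) lie above 0 and the 26 that fell (blue) below 0 on both axes, with Sytl2 at -2.47 on FPKM and -0.32 on fragments, and the open circles are genes past the FPKM test only.

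Promoters of 5 of these genes are shown because the results turn on them: Nfkbia, Cxcl1 and Csf1 rose at 2 h, while Ccl20 and Icam1 were listed at 0 at 2 h in RelA(Ser276Ala) cells and not in RelA(wt) cells. Each line is the 200 bases before the RefSeq start of the gene (build GRCm38.p6, the build also called mm10), 5′ to 3′ on the gene's strand. Capitals mark matches to GGNNTTTCC, a 9-letter form of the κB site, on either strand, where matches on the opposite strand read as the reverse complement. The Nfkbia stretch is chr12:55492648-55492847 on the minus strand, Cxcl1 chr5:90891045-90891244 plus, Csf1 chr3:107760470-107760669 minus, Ccl20 chr1:83116566-83116765 plus and Icam1 chr9:21015740-21015939 plus.
Nfkbia: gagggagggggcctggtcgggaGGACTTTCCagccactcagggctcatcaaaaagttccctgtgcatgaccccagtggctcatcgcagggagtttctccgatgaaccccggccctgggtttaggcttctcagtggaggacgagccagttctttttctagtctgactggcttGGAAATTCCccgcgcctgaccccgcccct
Cxcl1: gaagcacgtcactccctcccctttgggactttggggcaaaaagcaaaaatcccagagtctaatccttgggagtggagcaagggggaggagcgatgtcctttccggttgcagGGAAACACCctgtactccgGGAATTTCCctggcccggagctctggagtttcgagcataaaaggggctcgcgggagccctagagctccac
Csf1: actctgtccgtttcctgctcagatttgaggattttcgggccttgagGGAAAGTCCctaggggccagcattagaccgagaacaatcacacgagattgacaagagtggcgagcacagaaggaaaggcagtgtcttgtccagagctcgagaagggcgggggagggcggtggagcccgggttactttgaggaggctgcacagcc
Ccl20: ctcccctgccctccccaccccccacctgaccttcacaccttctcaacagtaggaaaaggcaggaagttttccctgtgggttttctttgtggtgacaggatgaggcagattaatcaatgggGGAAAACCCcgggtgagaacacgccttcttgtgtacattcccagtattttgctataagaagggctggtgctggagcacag
Icam1: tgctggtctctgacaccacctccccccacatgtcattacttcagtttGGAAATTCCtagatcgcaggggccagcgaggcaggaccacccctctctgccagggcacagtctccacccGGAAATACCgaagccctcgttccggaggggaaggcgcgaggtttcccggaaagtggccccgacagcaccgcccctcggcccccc
The promoters of Nfkbia, Cxcl1 and Icam1 hold 2 matches each and those of Csf1 and Ccl20 hold 1. A match stands in the same 200 bases of 4.05% of the 32851 promoters in the table. Among genes tested, 8795 had a promoter there and 5.29% of them held a match, and of the 78 genes that rose 47 had a promoter and 6 of these (12.8%) held a match. The letters occur in genes that rose and in genes that were not detected at 2 h, and a match is a description of the sequence only.

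Among the IκB family genes, Nfkbia was called higher at 2 h on both measures and 4 others on recovered fragments only. Nfkbia, which encodes IκBα, the inhibitor that takes RelA back out of the nucleus, stood at 58.4 and 67.5 FPKM at 2 h, against 13.2 and 12.8 FPKM at 0 h, a log2 change of 2.23 ± 0.32 (SE; limma, adjusted p = 0.0088). The libraries of the 2 times do not overlap, and those at 1 h lay higher still at 187 and 162 FPKM. Nfkbia was the 1 call among 5 tested IκB family genes on FPKM. On recovered fragments all 5 were called higher, namely Nfkbia, Nfkbib, Nfkbie and the nuclear members Nfkbiz and Bcl3. The FPKM of Nfkbie did not show this, at 3.59 and 3.34 FPKM at 2 h, against 4.41 and 2.67 FPKM at 0 h. The median log2 change of the 5 genes was 0.44 on FPKM and 1.72 on fragments, against -0.04 and -0.06 over the 11110 tested genes above 0 in the 4 libraries.

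The genes of the NF-κB subunits other than Rela were called higher on fragments only. Relb, a subunit of the slower non-canonical dimers, read 22.7 and 23.9 FPKM at 2 h, against 6.72 and 6.63 FPKM at 0 h, without overlap (log2 change 1.73 ± 0.36, adjusted p = 0.056). Nfkb1, the precursor of p50, read 19.7 and 19.6 FPKM at 2 h, against 10.2 and 9.97 FPKM at 0 h. Of 5 subunit genes 0 were past the FPKM test, and Relb, Rel, Nfkb1 and Nfkb2 were past the fragment test. In Nfkb2 the 0 h libraries differed from each other, with 95.7 and 92.0 FPKM at 2 h, against 102 and 47.3 FPKM at 0 h, and the 2 times overlap.

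Among 21 genes of TNF receptor signalling and ubiquitin editing, 0 passed the FPKM test, while 4 were higher and 3 lower on fragments. Tnfaip3, which encodes A20, the ubiquitin-editing enzyme that stops signalling from the TNF receptor, read 7.12 and 6.4 FPKM at 2 h, against 2.44 and 3.01 FPKM at 0 h (log2 change 1.17 ± 0.25, adjusted p = 0.063). At 1 h it had been 55.0 and 50.7 FPKM, and the fall by 2.88 on the log2 scale between 1 h and 2 h was past the test (limma, adjusted p = 0.0002). Higher on fragments were Tnfaip3, its partner Tnip1, the adaptor Traf3 and Birc3, which encodes the ubiquitin ligase cIAP2. Lower were the receptor Tnfrsf1a, the kinase Ripk1 and Ikbkg, the scaffold of the IκB kinase complex. Tnfrsf1a was at 36.6 and 35.6 FPKM at 2 h, against 48.9 and 47.8 FPKM at 0 h, with a log2 difference of -0.42 (adjusted p = 0.077).

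The chemokines were among the largest rises. Ccl2, which draws monocytes, reached 568 and 523 FPKM at 2 h, against 48.8 and 52.3 FPKM at 0 h, a log2 change of 3.42 ± 0.20 (limma, adjusted p = 2.2e-05). Its neighbour in function Ccl7 reached 54.2 and 63.2 FPKM, against 7.49 and 8.01 FPKM (log2 change 2.84 ± 0.19, adjusted p = 5.6e-05). The values at 1 h, 310 and 422 FPKM for Ccl2 and 30.1 and 37.9 FPKM for Ccl7, lay between those of the other times.

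The neutrophil attractant Cxcl1 stood at 8.62 and 6.08 FPKM at 2 h and was listed at 0 in both 0 h libraries (adjusted p = 2.7e-05), with 39.1 and 24.2 FPKM at 1 h. Cxcl10, an attractant of T cells, stood at 4.56 and 2.76 FPKM at 2 h and at 0 in both 0 h libraries (adjusted p = 0.0038). So Ccl2 and Ccl7 were at their highest at 2 h, and Cxcl1 and Cxcl10 at 1 h. Between 1 h and 2 h only the fall of Cxcl1 was past the FPKM test, while all 4 of these changes were past the fragment test. Of 20 chemokine genes 11 passed the filter on low values, 4 of these were called higher and 0 lower, and on fragments 5 were higher, the fifth being Cx3cl1. In 11 of the 20 genes the 4 libraries were all listed at 0.

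Among cytokines and growth factors 5 of 16 tested genes were called higher and 0 lower, with 7 higher and 1 lower on fragments. Csf1, the growth factor of macrophages, reached 127 and 105 FPKM at 2 h, against 29.6 and 28.7 FPKM at 0 h, a log2 change of 1.96 ± 0.11 (adjusted p = 1.8e-05). Lif, which signals through gp130, reached 18.1 and 13.8 FPKM, against 3.03 and 3.56 FPKM (log2 change 2.11 ± 0.16, adjusted p = 0.00012). The EGF receptor ligand Ereg reached 23.1 and 23.5 FPKM, against 12.3 and 9.56 FPKM (adjusted p = 0.0096). Another EGF receptor ligand, Hbegf, reached 73.2 and 45.3 FPKM, against 22.1 and 18.8 FPKM, so the spread between the 2 h libraries was wide but did not reach the 0 h values. Vegfa, the angiogenic factor, stood at 34.5 and 28.2 FPKM, against 17.5 and 17.5 FPKM. The 10 members above 0 in the 4 libraries had a median log2 change of 0.94. The 1 gene lower on fragments was Tnfsf9, the 4-1BB ligand.

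Of the 9 genes that the study followed by qRT-PCR, Nfkbia and Ptgs2 were past the FPKM test at 2 h. Ptgs2, the inducible cyclooxygenase, stood at 81.2 and 66.6 FPKM at 2 h, against 13.0 and 13.1 FPKM at 0 h, a log2 change of 2.45 ± 0.32 (adjusted p = 0.0048). It was the 1 call among 6 tested genes of prostaglandin synthesis, on either measure. Vcam1, which leukocytes bind on activated cells, read 24.3 and 41.3 FPKM at 2 h, against 19.4 and 20.2 FPKM at 0 h (adjusted p = 0.46). Tnfsf9 read 5.93 and 6.24 FPKM at 2 h, against 8.77 and 10.9 FPKM at 0 h, the lower values being those with TNFα (log2 difference -0.64 ± 0.14, adjusted p = 0.074). Csf2, Cxcl2, Icam1 and Tnf were listed at 0 in all 6 RelA(Ser276Ala) libraries. Of these 4 genes Icam1 alone was above 0 at 2 h in the other lines, with 4.79 and 4.67 FPKM in RelA(wt) cells and 1.65 and 3.72 FPKM in RelA(TA2) cells, and at 1 h Csf2 stood at 14.0 and 13.1 FPKM in RelA(wt) cells and Cxcl2 at 9.58 and 7.21 FPKM.

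Genes that act on the matrix and on cell contacts rose in part, with 3 of 16 adhesion and protease genes called higher and 0 lower, and 8 higher on fragments. Plau, a protease that activates plasminogen, stood at 49.7 and 86.9 FPKM at 2 h, against 31.0 and 30.8 FPKM at 0 h (adjusted p = 0.04). The gelatinase Mmp9 stood at 3.27 and 1.49 FPKM at 2 h and was listed at 0 in both libraries at 1 h and both at 0 h (adjusted p = 0.021). Lox, which crosslinks collagen, was the 1 called gene among 19 matrix and fibroblast genes, at 36.0 and 36.1 FPKM, against 24.2 and 21.8 FPKM. On fragments 1 of the 19 was higher and 3 were lower, against 4.52% and 5.92% of all genes tested.

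The Id genes, inhibitors of basic helix-loop-helix factors that BMP signals are known to induce, formed a second block. Id1 reached 85.7 and 46.5 FPKM at 2 h, against 10.1 and 8.08 FPKM at 0 h (log2 change 2.74 ± 0.29, adjusted p = 0.0014). Id3 reached 131 and 67.9 FPKM, against 19.3 and 17.0 FPKM (log2 change 2.35 ± 0.26, adjusted p = 0.0016). Id2 reached 82.0 and 75.4 FPKM, against 19.9 and 17.2 FPKM (adjusted p = 0.01). For Id1 and Id3 the first 2 h library lay well above the second, yet neither came near the 0 h values. With Skil, a repressor of SMAD proteins at 20.6 and 17.9 FPKM against 8.62 and 7.97 FPKM, 4 of 12 genes on the TGF-β and BMP list were called higher and 0 lower. On fragments 8 were higher and 1, Tgfb3, was lower.

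Among the immediate-early regulators 3 of 25 were called higher and 0 lower. The AP-1 subunits Fosl2 (46.9 and 40.0 FPKM at 2 h, against 19.7 and 18 FPKM at 0 h, adjusted p = 0.0014) and Junb (47.2 and 34.4 FPKM, against 16.5 and 16.7 FPKM, adjusted p = 0.019) rose with the orphan receptor Nr4a2 (10.7 and 13.9 FPKM, against 5.95 and 6.14 FPKM, adjusted p = 0.0064). On fragments 8 were higher, and Egr1 and the antiproliferative gene Btg2 were lower. Egr1 read 5.69 and 5.66 FPKM at 2 h, against 12.1 and 16 FPKM at 0 h, after 417 and 296 FPKM at 1 h. In 11 of these 25 genes the 2 h level was below the 1 h level by the FPKM test, and in 2 above it. Over all genes tested 0.888% were lower at 2 h than at 1 h and 0.978% higher.

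Of 13 feedback inhibitors of MAP kinases, 1 was called higher on FPKM, the phosphatase gene Dusp8, which was not called on fragments (adjusted p = 0.61). The 5 called higher on fragments were Dusp4, Dusp5, Dusp10, Spred2 and Errfi1. Dusp5, a nuclear ERK phosphatase, read 111 and 74.4 FPKM at 2 h, against 55.1 and 48.7 FPKM at 0 h.

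Targets of SRF and YAP, regulators of the actin cytoskeleton and of growth, were called in 2 of 13 cases on FPKM and in 12 of 13 on fragments, in each case higher. Over all genes tested 0.701% were higher on FPKM and 4.52% on fragments. Ankrd1 stood at 145 and 117 FPKM at 2 h, against 76.0 and 73.0 FPKM at 0 h (log2 change 0.80 ± 0.12, adjusted p = 0.011), and Srf itself at 21.5 and 17.2 FPKM, against 10.8 and 11.4 FPKM (adjusted p = 0.035). Ctgf, a secreted matrix protein, read 26.3 and 15.8 FPKM, against 7.31 and 1.60 FPKM, and was past the test on fragments but not on FPKM (adjusted p = 0.067). The 13 genes had a median log2 change of 0.42 on FPKM and 0.71 on fragments.

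Of 14 genes of survival and cell death 3 were called higher and 0 lower. They were Bcl2l1, which encodes the survival protein Bcl-xL (30.1 and 26.2 FPKM at 2 h, against 19.9 and 19.1 FPKM at 0 h), and the death genes Fas (5.31 and 7.26 FPKM, against 3.10 and 3.34 FPKM) and Pmaip1, which encodes Noxa (40.8 and 42.0 FPKM, against 29.3 and 26.5 FPKM). The call of Bcl2l1 turned to a log2 difference of -0.24 when the highest assembled transcript alone stood for the gene. On fragments Cflar was also higher, and the death genes Bcl2l11 and Bbc3 were lower.

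Further calls were few. The clock activator Arntl was 1 of 12 clock and glucocorticoid-responsive genes, at 21.3 and 20.1 FPKM at 2 h, against 12.8 and 13.4 FPKM at 0 h, and Cebpd 1 of 14 other regulators, at 31.6 and 28.3 FPKM, against 10.3 and 13.0 FPKM. On fragments these lists had 1 higher and 1 lower, and 4 higher and 4 lower. Of 16 p53 targets 1 fell, Zmat3, with 24.1 and 24.7 FPKM, against 30.1 and 31.3 FPKM, and on fragments 2 were higher and 3 lower. Interferon-stimulated and antigen-processing genes had 0 of 23 members called on FPKM, with 2 higher and 6 lower on fragments and a median log2 change of -0.19. Of these, Ifit3 read 4.08 and 3.40 FPKM at 2 h, against 6.67 and 9.50 FPKM at 0 h (adjusted p = 0.083). Acute-phase and innate defence genes had 0 of 9 called on FPKM and 1 higher on fragments, Ch25h, at 1.93 and 1.26 FPKM at 2 h and listed at 0 in both 0 h libraries (adjusted p = 0.056). Regulators of mRNA decay had 0 of 9 called on FPKM, with 4 called on fragments, of which 3 were higher and 1 lower. Of these, Zfp36l1 read 21.5 and 20.8 FPKM, against 16.2 and 15.8 FPKM (adjusted p = 0.083). The stress response list had 0 of 12 called on FPKM (Cebpb, adjusted p = 0.23), with 1 higher and 2 lower on fragments. The hypoxia list had 0 of 15 called on FPKM (Hk2, adjusted p = 0.26), with Slc2a1 and Hk2 higher on fragments.

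Several lists had 0 members called on either measure. They were cell cycle (19 tested), cholesterol synthesis (11), heat shock (7), Wnt and Notch targets (5), the co-activators and kinases that act on RelA (12), ribosomal proteins (18) and histone genes without a poly(A) tail (3). Over all genes an unadjusted p under 0.05 was met by 628 higher and 787 lower on FPKM, so a count of 0 says only that no member passed the adjusted test. Of the marker genes of other cells that passed the filter, 0 were called on FPKM and Pparg, a regulator of fat cells, was called higher on fragments, at 10.4 and 10.01 FPKM at 2 h, against 7.22 and 7.33 FPKM at 0 h.

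**Figure D2:**
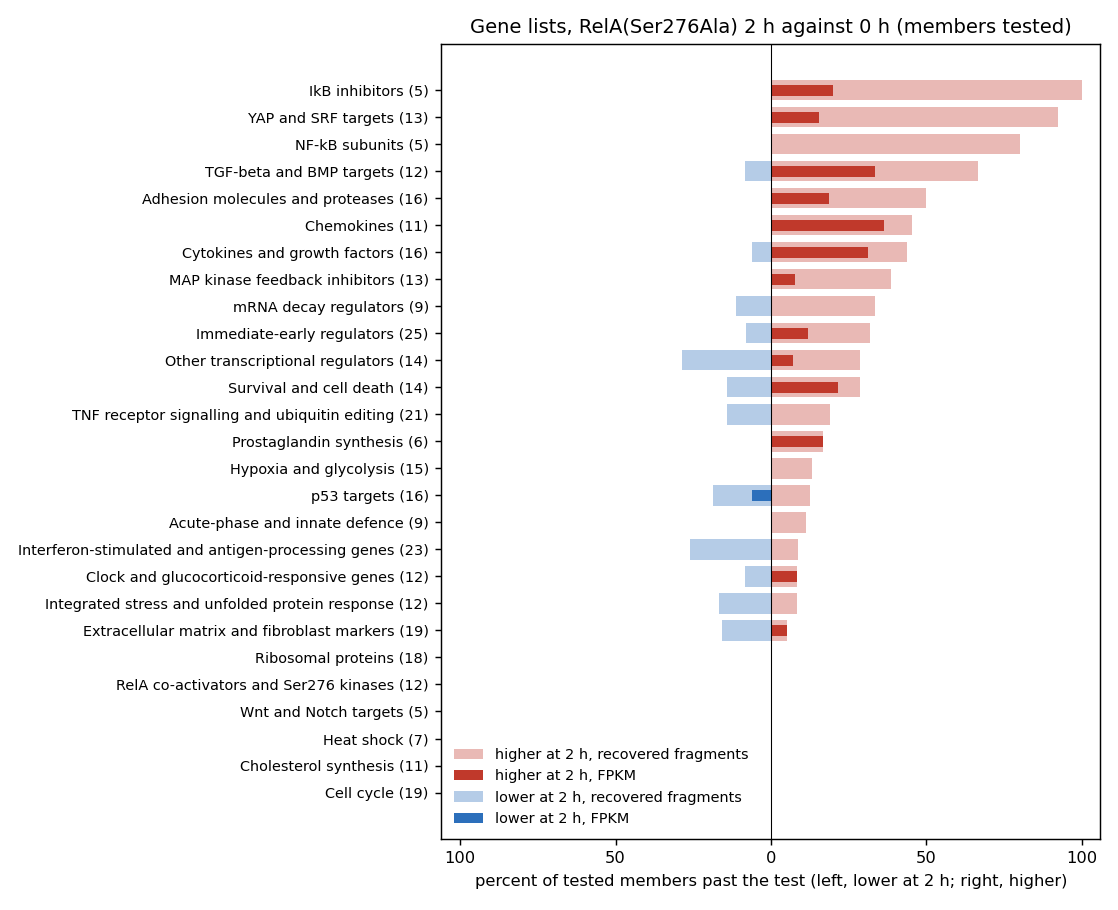
Bars give, for lists with at least 5 tested members, the percent of tested members that were past the test in RelA(Ser276Ala) cells at 2 h against 0 h, with wide pale bars for recovered fragments, narrow dark bars for FPKM, red to the right for higher and blue to the left for lower. The IκB family genes, with 5 of 5 higher on fragments, and the YAP and SRF targets, with 12 of 13, stand at the top, and 6 lists at the bottom have no call.

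Beyond the lists, the largest rises included genes that were listed at 0 before TNFα. Olr1, a receptor for oxidized lipoprotein, stood at 5.44 and 2.62 FPKM at 2 h and at 0 in both 0 h libraries (adjusted p = 0.041). Tac1, the precursor of substance P, stood at 3.48 and 2.57 FPKM and at 0 (adjusted p = 0.00037). The mitochondrial arginase gene Arg2 stood at 9.93 and 1.31 FPKM and at 0 (adjusted p = 0.044), so its 2 h libraries were far apart. In all, 8 of the 78 genes that rose were at 0 in both 0 h libraries, and no fold is given for them.

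The genes that rose followed different courses after 1 h. Of the 78, 28 were higher at 2 h than at 1 h by the FPKM test and 7 were lower, against 120 (0.978%) and 109 (0.888%) of all genes tested; on fragments 43 were higher and 12 lower, against 1094 (8.91%) and 1108 (9.03%). These counts share the 2 h libraries with the comparison that chose the 78 genes and are a description. Of those lower at 2 h than at 1 h, Phlda1 had 17.6 and 16.9 FPKM at 0 h, 131 and 127 FPKM at 1 h and 45.5 and 34.6 FPKM at 2 h. Rgs16, which switches off G proteins, had 28.6 and 26.4, 183 and 164, and 76.9 and 57.9 FPKM at those times.

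Among the late genes, Lrrc32, which holds latent TGF-β at the cell surface, stood at 18.1 and 19.1 FPKM at 0 h, 12.3 and 11.1 FPKM at 1 h and 52.4 and 49.3 FPKM at 2 h. Its rise between 1 h and 2 h was 2.08 on the log2 scale (limma, adjusted p = 2.6e-07), and that against 0 h 1.43 ± 0.08 (adjusted p = 1.8e-05). Angptl4, an inhibitor of lipoprotein lipase, stood at 4.19 and 4.16 FPKM at 0 h, 5.25 and 5.83 FPKM at 1 h and 19.3 and 14.9 FPKM at 2 h. Micall2, a junction protein, stood at 13.3 and 12.4, 12.2 and 10.6, and 28.0 and 26.0 FPKM at those times. Irf5, an interferon regulatory factor, was listed at 0 in the 4 libraries at 0 h and 1 h and stood at 1.57 and 1.59 FPKM at 2 h. These genes were chosen after their values were seen.

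**Figure D3:**
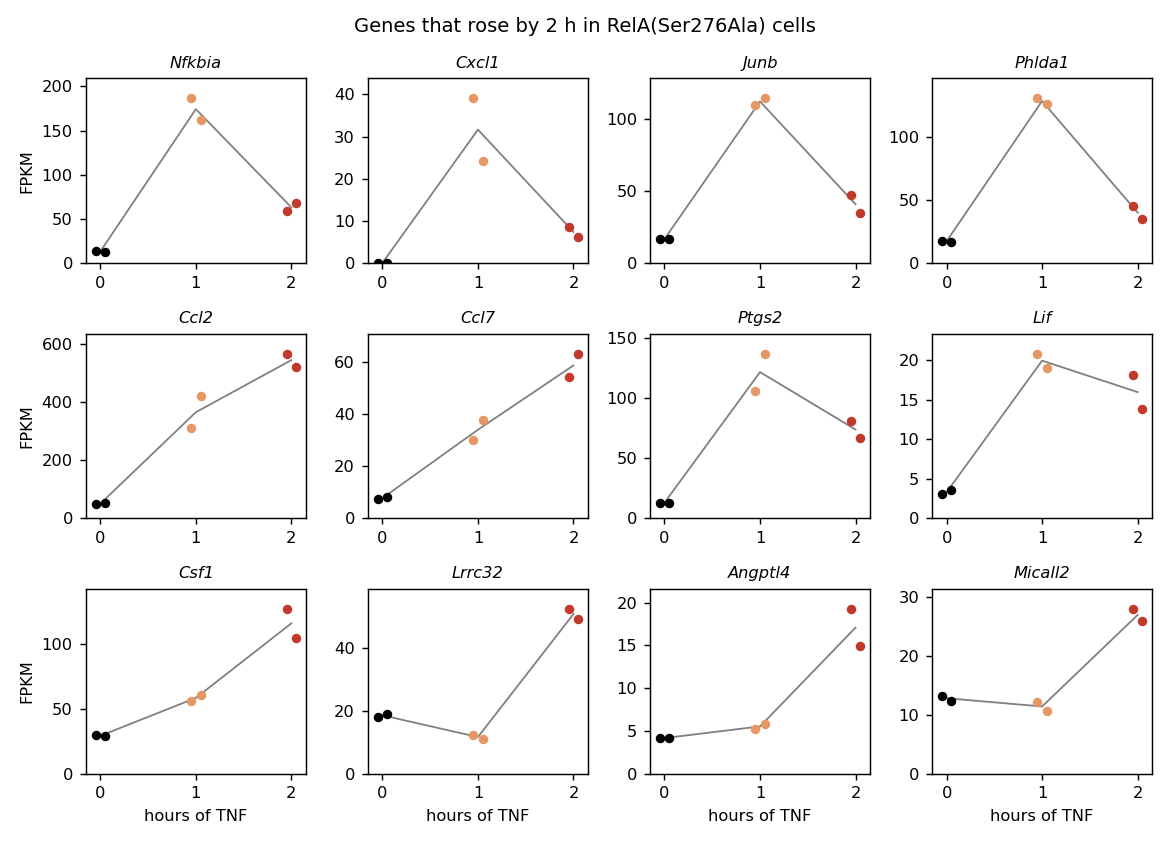
Points are single RelA(Ser276Ala) libraries (black at 0 h, orange at 1 h, red at 2 h) and lines join the means, with hours of TNFα on the x axis and FPKM on the y axis, which starts at 0 in each panel. Nfkbia, Cxcl1, Junb and Phlda1 were highest at 1 h, with Nfkbia at 187 and 162 FPKM then and 58.4 and 67.5 FPKM at 2 h, while Csf1, Lrrc32, Angptl4 and Micall2 were highest at 2 h.

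The 12 largest falls at 2 h were in Bmf, Aox1, Gm15760, Onecut2, C030039L03Rik, Lrrtm1, Sytl2, Scara3, E130102H24Rik, Zfp712, Palm2 and Robo2. Bmf, which encodes a BH3-only protein that promotes apoptosis, was listed at 0 in both 2 h libraries, against 8.84 and 2.40 FPKM at 0 h (adjusted p = 0.0046). Aox1, an aldehyde oxidase, was listed at 0, against 2.09 and 4.63 FPKM (adjusted p = 0.027). Of the 26 genes that fell, 12 were listed at 0 in both 2 h libraries and 13 were above 0 in the 4 libraries. Sytl2 was 1 of the 13, at 6.23 and 6.62 FPKM, against 23.5 and 61.1 FPKM, but its log2 difference on fragments was -0.32 where FPKM gave -2.47.

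Other falls in genes above 0 in the 4 libraries are given by 4 examples chosen after their values were seen. Ccng2, the growth-restraining cyclin G2, stood at 6.05 and 5.48 FPKM at 2 h, against 10.7 and 11.5 FPKM at 0 h (log2 difference -0.89 ± 0.11, adjusted p = 0.0029). The receptor adaptor gene Ticam1 stood at 6.73 and 6.11 FPKM, against 10.5 and 12 FPKM. Gabarapl1, which acts in autophagy, stood at 58.1 and 52.0 FPKM, against 79.0 and 78.8 FPKM, and the translation factor gene Eif4b at 226 and 227 FPKM, against 278 and 282 FPKM. None of these pairs overlapped.

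The response at 2 h was then set against that of the other lines by the difference between their changes. The lines also differed in RelA protein, with less of the Ser276Ala mutant than of RelA(wt) on the immunoblots of the study, so the mutation and the amount of RelA cannot be told apart in these differences. In RelA(wt) cells 157 genes were higher at 2 h than at 0 h (1.28%) and 54 lower (0.44%), and in RelA(TA2) cells 217 (1.77%) and 229 (1.87%). Of the 78 genes that rose in RelA(Ser276Ala) cells, 56 were called higher in RelA(wt) cells, which is 56 of the 157 there, and 61 in RelA(TA2) cells, which is 61 of the 217. None of the 78 was called lower in either. Of the 26 genes that fell, 8 were called lower and 1 higher in RelA(wt) cells, and 11 lower and 0 higher in RelA(TA2) cells.

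The change differed from that in RelA(wt) cells in 6 genes that were higher (0.0489%) and 14 that were lower (0.114%) on FPKM, and in 1 (0.00815%) and 33 (0.269%) on fragments. The 6 higher genes, Prpf6, Sucla2, Abca7, Txndc12, Slc35a2 and Ccni, were not called on fragments, where 4 of them had the opposite sign. Of the 14 lower ones 11 were called on fragments, and 2 had the opposite sign there. Without 1 library the FPKM counts were 66, 63, 16 and 15 higher and 21, 27, 61 and 64 lower, leaving out the first or second 2 h or the first or second 0 h library.

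Ccl20, a chemokine that attracts cells bearing CCR6, had the smallest adjusted p of the 11 genes lower on both measures. It was listed at 0 in both 2 h and both 0 h libraries of RelA(Ser276Ala) cells, with 1.95 and 3.18 FPKM at 1 h, while RelA(wt) cells had 25.1 and 28.5 FPKM at 2 h and 0 at 0 h (adjusted p of the difference 8e-06). RelA(TA2) cells lay between, at 8.18 and 7.55 FPKM at 2 h and 0 at 0 h, and the change in RelA(Ser276Ala) cells was below that one too (adjusted p = 7.2e-05). Icam1, the adhesion molecule for leukocyte integrins, was at 0 in RelA(Ser276Ala) cells at both times, against 4.79 and 4.67 FPKM at 2 h and 0 at 0 h in RelA(wt) cells (adjusted p = 0.016). Nlrp3, an inflammasome sensor, was likewise at 0, against 9.11 and 4.83 FPKM at 2 h and 0 at 0 h (adjusted p = 0.033). Gbp7, Sprr2e and 1700094D03Rik were at 0 at both times too, with at most 8.04 FPKM at 2 h in RelA(wt) cells.

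In 3 of the 11 genes, Tnfsf9, Ripk2 and Wdr92, the 2 h and 0 h libraries of both lines were above 0. Tnfsf9 stood at 5.93 and 6.24 FPKM at 2 h and 8.77 and 10.9 FPKM at 0 h in RelA(Ser276Ala) cells, against 19.9 and 22.8 FPKM at 2 h and 8.95 and 8.68 FPKM at 0 h in RelA(wt) cells. The change was lower by -1.87 ± 0.20 on the log2 scale (adjusted p = 0.003). Ripk2, a kinase that passes signals from NOD receptors to NF-κB, stood at 5.29 and 5.73 FPKM at 2 h and 4.32 and 3.85 FPKM at 0 h, against 19.3 and 16.9 FPKM at 2 h and 5.03 and 4.77 FPKM at 0 h in RelA(wt) cells (log2 difference -1.39 ± 0.19, adjusted p = 0.017). Wdr92 stood at 26.6 and 27.9 FPKM at 2 h and 22 and 21.5 FPKM at 0 h, against 225 and 227 FPKM at 2 h and 34.7 and 32.9 FPKM at 0 h in RelA(wt) cells (adjusted p = 1.9e-05). The Wdr92 sum includes a separate assembled piece at the 3′ end. At 2 h that piece stood at 14.7 and 15.5 FPKM, against 215 and 217 FPKM in RelA(wt) cells. The spliced transcript stood at 11.9 and 12.4 FPKM, against 10.3 and 10.4 FPKM.

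Kdelr3, an endoplasmic reticulum retrieval receptor, is also among the 11, but its zeros do not follow TNFα: it was listed at 0 in both 2 h libraries of RelA(Ser276Ala) cells and in both 0 h libraries of RelA(wt) and of RelA(TA2) cells, and at 13.9 to 24.2 FPKM in the libraries of the other 2 h and 0 h groups. In the 2 h libraries of RelA(Ser276Ala) cells no spliced transcript was assembled at chr15:79516408-79527739, though 3 unspliced pieces were. The 0 h libraries of RelA(wt) cells, also without a spliced transcript, held 1 and 2 such pieces, and those of RelA(TA2) cells 5 and 4. The second 2 h library of RelA(wt) cells and that of RelA(TA2) cells each held 1 beside the spliced transcript. At 1 h the 2 RelA(wt) libraries differed from each other. The first held no spliced transcript and 4 such pieces, and the second a spliced transcript at 13.0 FPKM and 0 such pieces. Zfp712, at 0 at 2 h, against 1.37 and 1.58 FPKM at 0 h, stood at 0.898 and 0.952 FPKM at 2 h and 0 at 0 h in RelA(wt) cells.

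**Figure D4:**
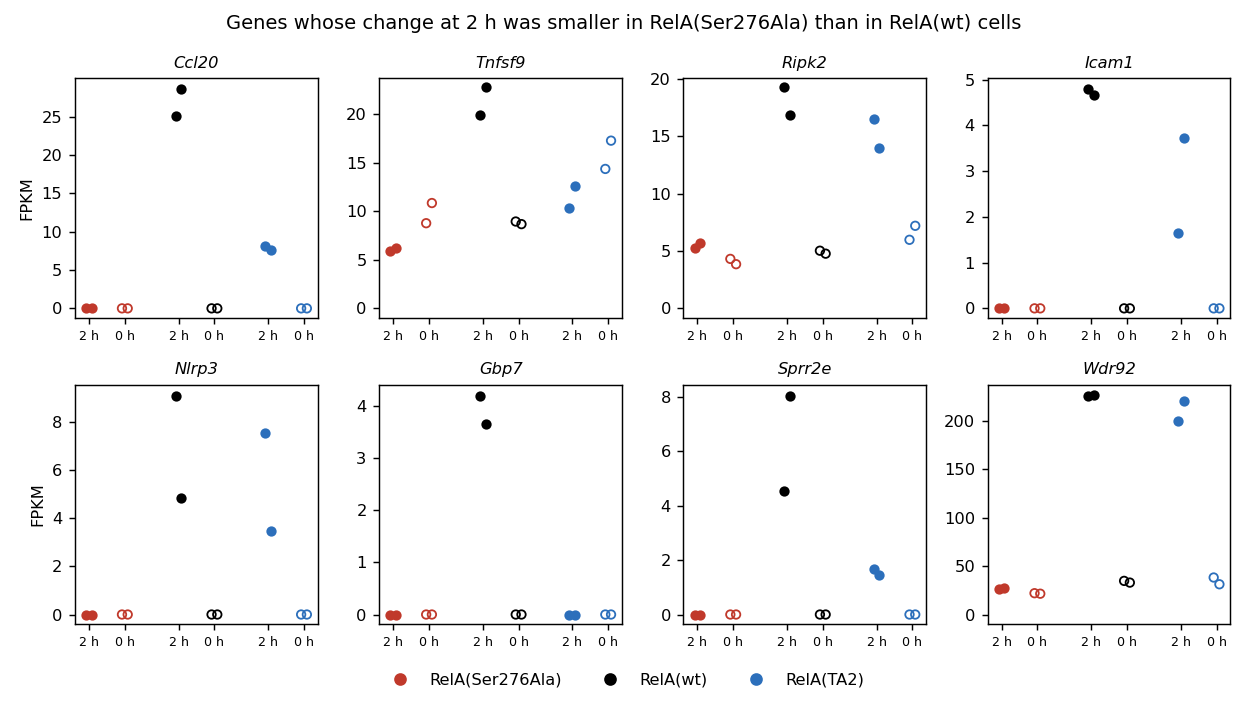
Points are single libraries at 2 h (filled) and 0 h (open) in RelA(Ser276Ala) cells (red), RelA(wt) cells (black) and RelA(TA2) cells (blue), with FPKM on the y axis, for 8 of the 11 genes whose change at 2 h was lower than in RelA(wt) cells on both measures. Ccl20, Icam1, Nlrp3, Gbp7 and Sprr2e lie at 0 in the 4 RelA(Ser276Ala) libraries, and Wdr92 reaches 225 and 227 FPKM in RelA(wt) cells at 2 h, against 26.6 and 27.9 FPKM in RelA(Ser276Ala) cells. The Wdr92 values are sums that include a separate assembled piece at the 3′ end of the gene.

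Against RelA(TA2) cells, 8 genes differed upwards (0.0652%) and 11 downwards (0.0896%) on FPKM, and 51 (0.416%) and 73 (0.595%) on fragments. Lower on both measures were Ccl20, Wdr92, Mt2, Hk2, Ppap2b, Tmem119, Prpf39 and Kdelr3. The metallothionein Mt2, which binds zinc, stood at 292 and 272 FPKM at 2 h and 142 and 123 FPKM at 0 h, against 537 and 535 FPKM at 2 h and 68.3 and 82.6 FPKM at 0 h in RelA(TA2) cells (log2 difference -1.74 ± 0.23, adjusted p = 0.013). The zeros of Prpf39 were in the RelA(TA2) 0 h libraries and those of the 2 higher genes, Fkbp2 and Rpl37, in the RelA(TA2) 2 h libraries. Without 1 library the counts were 77, 73, 14 and 15 upwards and 25, 26, 56 and 45 downwards, in the same order of libraries as above.

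For the other genes of the qRT-PCR set the changes did not differ past the test, which does not show that they are alike. The difference from RelA(wt) cells was 1.47 ± 0.46 for Nfkbia (adjusted p = 0.55), -0.33 ± 0.45 for Ptgs2 (adjusted p = 0.97), 0.14 ± 0.35 for Tnfaip3 (adjusted p = 1) and -0.01 ± 0.44 for Vcam1 (adjusted p = 1), on the log2 scale with SE. Nfkbia in RelA(wt) cells was 41.9 and 33.7 FPKM at 2 h, against 34.1 and 14.2 FPKM at 0 h, so its 0 h libraries there were far apart.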

How the data were processed

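The 18 libraries come from rela-/- fibroblasts carrying RelA(Ser276Ala), RelA(TA2) or RelA(wt), 2 per line and time. Per the labels and the study's methods, the authors used CASAVA 1.8.2 for base calls, TopHat2 2.0.5 (with Bowtie2 2.0.0.7) for mapping to mm10, and Cufflinks 2.0.2 for assembly, library by library. FPKM values of assembled transcripts were deposited as attributes in annotation files, already scaled by the authors for depth and transcript length. The Cuffdiff output was not used here.

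Transcripts were placed on RefSeq genes of the authors' merged annotation (Python 3.11.15, pandas 2.3.3, numpy 2.4.6). A transcript belonged to a gene if 50% or more of its sequence was exonic in that gene, or if it covered 50% or more of the gene's exonic sequence. FPKM were summed per gene, and a gene without a transcript was given 0, which can be a failed assembly. Of 23212 genes, 22453 had 200 or more exonic bases and were used. Fragment numbers were recovered from the confidence limits that accompany each FPKM for genes with 1 transcript (a median of 89.3% of numbers under 500 lay within 0.02 of a whole number) and from FPKM and length otherwise, and scaled to the total in genes.

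The filter required 1 FPKM or more in 2 or more libraries (12273 genes). The test was limma 3.58.1 (R 4.3.3) with a variance trend and 1 mean per condition over 18 libraries, leaving 9 residual degrees of freedom, on FPKM after adding 0.5 and taking log2. Fold changes are on that scale and understate the change of low genes. Tests were two-sided with Benjamini-Hochberg adjustment over all genes tested, and fragments were tested likewise. Median depth was 28.3 M mapped fragments. The script was tested on simulated data.

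The comparison described, its gene lists and its tests were chosen with earlier results of these data known. Named genes are the 12 largest rises and 12 largest falls past both tests without overlap, the 9 qRT-PCR genes and Rela, up to 3 called members of each list (or the 1 with the smallest p), and up to 5 per direction for each difference between lines. Other genes named are list members called on fragments only or genes chosen after their values were seen. Promoters are from RefSeq (GRCm38.p6). Some genes are not reported here. The alternatives tried are described at the end.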

Additional observations from a re-analysis of the deposited data

Results flagged for a closer look

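The results here stand out because the change between 0 h and 2 h differed between lines by a test of the difference itself (limma, all genes). Against RelA(wt) cells the log2 change in RelA(Ser276Ala) cells was lower by -5.77 for Ccl20, -3.39 for Icam1, -3.84 for Nlrp3, -3.14 for Gbp7, -3.71 for Sprr2e, -2.81 for 1700094D03Rik, -1.87 for Tnfsf9, -1.39 for Ripk2, -2.405 for Wdr92, -3.49 for Zfp712 and -9.93 for Kdelr3. For genes listed at 0 these values depend on the 0.5 FPKM added and are no fold changes. The values for Wdr92 against either line include the separate 3′ piece described at the end.

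Against RelA(TA2) cells the difference was -4.06 for Ccl20, -2.27 for Wdr92, -1.74 for Mt2, -1.25 for Hk2, -1.09 for Ppap2b, -4.80 for Prpf39 and -10.66 for Kdelr3, and 6.63 for Fkbp2 and 11.84 for Rpl37. Hk2, a hexokinase, stood at 15.6 and 12.6 FPKM at 2 h and 10.4 and 10.3 FPKM at 0 h in RelA(Ser276Ala) cells, against 23.5 and 27.2 FPKM at 2 h and 7.2 and 8.0 FPKM at 0 h in RelA(TA2) cells. In Kdelr3, Zfp712, Prpf39, Fkbp2 and Rpl37 the difference rests on both libraries of 1 or more conditions being listed at 0 while the gene was above 0 in other conditions of the same line. In Ccl20, Icam1, Nlrp3, Gbp7, Sprr2e and 1700094D03Rik the RelA(Ser276Ala) libraries at 2 h and 0 h were all listed at 0, so those differences rest on zeros as well. The zeros are the same on FPKM and on fragments, so passing both measures is no added support there. Whether such zeros are failed assemblies was not tested.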

How the results depend on the processing

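The counts of calls depend on the unit and on the error model more than on the filter or scaling. In RelA(Ser276Ala) cells at 2 h against 0 h, where 86 genes were higher and 35 lower, recovered fragments gave 555 and 726, a fit of the compared libraries alone 16 higher, and a filter of 5 FPKM 20 lower. Against 1 h (120 higher, 109 lower), fragments gave 1094 and 1108 and the compared libraries alone 8 and 20. For the difference from RelA(wt) cells (6 higher, 14 lower), adding 0.1 FPKM gave 10 higher, fragments 1 and 33, the compared libraries alone 23 and 51, no variance trend 12 and 33, and a filter of 5 FPKM 8 lower. For the difference from RelA(TA2) cells (8 higher, 11 lower), the highest transcript alone gave 4 higher, adding 0.1 FPKM 20 lower, fragments 51 and 73, the compared libraries alone 14 and 30, and no variance trend 26 lower.

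Leaving out 1 library of 0 h or 2 h gave 54 to 158 higher and 29 to 93 lower at 2 h against 0 h (229 to 368 and 129 to 411 on fragments), 99 to 170 and 94 to 97 against 1 h (637 to 980 and 657 to 971), 15 to 66 and 21 to 64 for the difference from RelA(wt) cells (0 to 11 and 23 to 59), and 14 to 77 and 25 to 56 for that from RelA(TA2) cells (13 to 109 and 36 to 106). The replicate numbers were not treated as pairing the RelA(Ser276Ala) libraries, by a rule that every correlation of deviations be above 0.1. On FPKM it was 0.02 between 0 h and 1 h, -0.05 between 0 h and 2 h and 0.09 between 1 h and 2 h. On fragments it was 0.057, 0.019 and 0.281 in the same order, so a pairing of the 1 h and 2 h libraries is not excluded. A replicate block gave 40 higher and 7 lower at 2 h against 0 h, 66 and 67 against 1 h, 5 lower against RelA(wt) cells, and 3 and 3 against RelA(TA2) cells, and on fragments the block gave 516 and 606, 1084 and 1048, 0 higher, and 35 and 46. Under the block 25 of the 43 called named genes lost their call. The fragment fits with a block or without 1 library were chosen after seeing the data.

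The change turned sign with the highest transcript alone in Bcl2l1 (-0.24), the macrophage marker Cd68 (-0.056) and Rela (-0.028), and on fragments in Cd68 (-0.18) and the endothelial marker Kdr (-0.089). Without 1 library it ranged between -1.02 and 1.96 in Kdr, -0.087 and 0.21 in the epithelial marker Krt8, and -0.049 and 0.079 in Rela. Of these genes only Bcl2l1 had been called. The cause of these shifts was not tested.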

Other observations

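Further genes that rose in RelA(Ser276Ala) cells include a skin gene and a matrix gene, chosen here after their values were seen. Sprr1a, of the cornified envelope, stood at 20.5 and 16.5 FPKM at 2 h, against 8.39 and 9.25 FPKM at 0 h (adjusted p = 0.0063). Thbs1, a matrix glycoprotein, stood at 143 and 115 FPKM, against 37.7 and 42.2 FPKM (adjusted p = 0.0029). In both genes the libraries of the 2 times do not overlap, which the choice of the genes that rose had required.

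At Wdr92 the difference between lines sits in a short piece at the 3′ end of the gene. A separate transcript was assembled there in each of the 18 libraries, in the first 2 h library of RelA(Ser276Ala) cells at chr11:17234385-17234896 (mm10). It lay on the plus strand with 1 exon counted within the gene, and whether it was spliced was not tested. It stood at 14.7 and 15.5 FPKM at 2 h and 8.0 and 7.14 FPKM at 0 h in RelA(Ser276Ala) cells, against 215 and 217 FPKM at 2 h and 22.4 and 21.4 FPKM at 0 h in RelA(wt) cells. In RelA(TA2) cells it stood at 189 and 210 FPKM at 2 h and 26.4 and 17.9 FPKM at 0 h. The spliced Wdr92 transcript stood at 11.9 and 12.4 FPKM at 2 h and 14.0 and 14.3 FPKM at 0 h in RelA(Ser276Ala) cells, against 10.3 and 10.4 FPKM at 2 h and 12.3 and 11.5 FPKM at 0 h in RelA(wt) cells. This piece was singled out after its values were seen, and no test was run on it alone.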
